A study of Homo sapiens with 60 samples.

Results

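Metallothioneins are small cysteine-rich proteins that hold zinc and copper in the cell, and SLC30A1 (ZnT1) is the plasma membrane transporter that carries zinc out of it. The rows of the deposited gene table that map to 5 metallothioneins (MT1E, MT1F, MT1G, MT1X and MT2A), to SLC30A1 and to MTF1, their shared transcription factor, were followed across the 60 libraries analysed. These are 7 of 60675 genes in the table, selected by symbol with earlier results of these data known. Counts of members called, set beside the share of all genes, are therefore descriptive. All 7 passed the filter on low counts.

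The study treated HT29, a line from a human colorectal adenocarcinoma, with herbal extracts for 24 h and sequenced mRNA libraries with paired-end reads of 100 bases. Ethanol extracts of 4 single herbs were given at 20, 100 and 500 µg/mL (low, medium and high dose) with 3 libraries a dose. These were Scutellariae Radix, Pinelliae Tuber and ginger in both of its forms, fresh as Zingiberis Rhizoma Recens and dried as Zingiberis Rhizoma. The water extracts of 2 herbal formulas were given at the same doses, Sayeok-tang with 3 libraries a dose and Bojungikgi-tang with 2. Ethanol extracts of Coptidis Rhizoma at 12.8, 64 and 320 µg/mL and of Zizyphi Fructus at 20, 100 and 500 µg/mL had 1 library a dose. Every contrast with untreated cells used the same 3 vehicle libraries, which received DMSO alone, at 0.1% in the sample labels and 2% in the series text. No group carried a genetic change or a second agent. Nothing in the labels tells whether replicates came from separate cultures, and the p-values therefore cover only the scatter among these libraries.

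In background, zinc that enters the cytosol binds MTF1, which moves to the nucleus and binds metal response elements in front of the metallothionein genes and of SLC30A1. More free zinc or copper therefore raises both the storage proteins and the exporter, and chelation of zinc lowers them. Metallothionein genes also answer to glucocorticoids and oxidants, and in the intestine they buffer dietary zinc and copper on its way through the epithelium.

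The 5 metallothionein genes lie within 76.0 kb of chromosome 16 (GENCODE 29, GRCh38). MT2A spans chr16:56608199-56609497, MT1E chr16:56625475-56627112, MT1F chr16:56657694-56660698 and MT1X chr16:56682424-56684196 on the plus strand, and MT1G spans chr16:56666731-56668065 on the minus strand. SLC30A1 (chr1:211571568-211578742) and MTF1 (chr1:37809567-37859620) are on the minus strand of chromosome 1. Promoters are shown for MT1X, MT2A, SLC30A1 and MTF1, because MTF1 is known to act on its targets through elements in front of them. Each sequence is the 250 bases before the RefSeq start (GRCh38.p14), 5′ to 3′ on the gene's strand, with every match to the core of the metal response element in capitals. These starts differ from the GENCODE spans above. The MT2A window lies inside the GENCODE span, and the MT1X and MTF1 windows overlap theirs. The SLC30A1 window lies beyond the GENCODE end of that gene, and the bases between were not searched. The core was searched as TGCACNC or TGCGCNC on both strands, and no 2 matches overlapped.
MT1X promoter, chr16:56682220-56682469: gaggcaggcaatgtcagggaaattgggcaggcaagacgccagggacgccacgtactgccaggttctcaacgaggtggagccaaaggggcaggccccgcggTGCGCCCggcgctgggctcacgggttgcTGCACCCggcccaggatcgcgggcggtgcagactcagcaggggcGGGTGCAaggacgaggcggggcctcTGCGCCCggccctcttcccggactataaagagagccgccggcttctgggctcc
MT2A promoter, chr16:56608334-56608583: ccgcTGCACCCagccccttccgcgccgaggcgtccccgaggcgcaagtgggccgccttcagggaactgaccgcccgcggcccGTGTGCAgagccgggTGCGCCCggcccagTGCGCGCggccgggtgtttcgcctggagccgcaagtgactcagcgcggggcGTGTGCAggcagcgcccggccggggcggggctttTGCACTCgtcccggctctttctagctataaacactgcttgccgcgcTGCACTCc
SLC30A1 promoter, chr1:211579162-211579411: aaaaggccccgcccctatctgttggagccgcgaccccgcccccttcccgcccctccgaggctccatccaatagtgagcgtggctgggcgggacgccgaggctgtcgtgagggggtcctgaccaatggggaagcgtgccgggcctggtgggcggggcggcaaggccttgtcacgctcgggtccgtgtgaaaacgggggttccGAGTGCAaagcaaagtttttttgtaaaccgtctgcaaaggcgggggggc
MTF1 promoter, chr1:37859593-37859842: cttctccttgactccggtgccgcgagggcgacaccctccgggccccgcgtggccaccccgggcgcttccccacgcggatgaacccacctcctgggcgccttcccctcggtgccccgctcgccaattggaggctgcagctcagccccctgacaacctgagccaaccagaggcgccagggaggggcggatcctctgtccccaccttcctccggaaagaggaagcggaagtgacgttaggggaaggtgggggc
The MT2A promoter held 7 matches, the MT1X promoter 4, the SLC30A1 promoter 1 and the MTF1 promoter 0. Of 35116 RefSeq promoters of the same length, 24.8% held at least 1 match, 0.370% at least 4 and 0.0313% at least 7. A match describes these letters and is not evidence of binding.

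Levels are given in CPM, the reads of a gene scaled to a common library total, and the totals lay between 18.02 M and 35.82 M reads. Of the 100-base windows of MT1X, 19.1% also occur in the transcript of another gene, AC026461.1, and its level is uncertain to that extent, while the other members shared 0 windows with another gene. Per kilobase of the principal transcript, the median over the 60 libraries was 89.6 CPM for MT1E, 33.4 for MT2A, 9.79 for SLC30A1, 5.89 for MT1X, 5.64 for MTF1, 0.928 for MT1F and 0.792 for MT1G. MT1E and MT2A thus made up most metallothionein RNA in HT29. MT1F (5 to 27 reads a library) and MT1G (0 to 18 reads) were near the limit of counting.

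Of the 54 libraries in the replicated groups, 3 stood apart in the share of reads from ribosomal protein genes (median 5.62% over the libraries) or mitochondrial genes (median 7.27%). They were vehicle replicate 1 (7.204% ribosomal protein), Scutellariae low-dose replicate 3 (9.35% ribosomal protein) and Pinelliae high-dose replicate 2 (14.3% mitochondrial), and the single Coptidis low-dose library also stood apart (15.2% mitochondrial). Colon epithelial markers were present (9 of 9 over 1 CPM in the median library). The summed level of 5 immune markers was 6.97 to 18.2 CPM. Of these, CD68 and CD14 were over 1 CPM in the median library, and PTPRC, CD3E and MS4A1 were at 0. Of the fibroblast markers 1 of 6 was over 1 CPM, and of the endothelial markers 1 of 4. In bulk RNA, fewer cells of a kind and less RNA per cell cannot be told apart. The titles of vehicle and extract libraries all carry the label BatchC. Within it, the first part of the sample codes puts vehicle in a set of its own. The titles and codes do not say what these sets stand for. Any handling that goes with the set therefore cannot be told apart from treatment in a contrast with vehicle. Both extracts of a pair compared below come from 1 set.

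**Figure D1:**
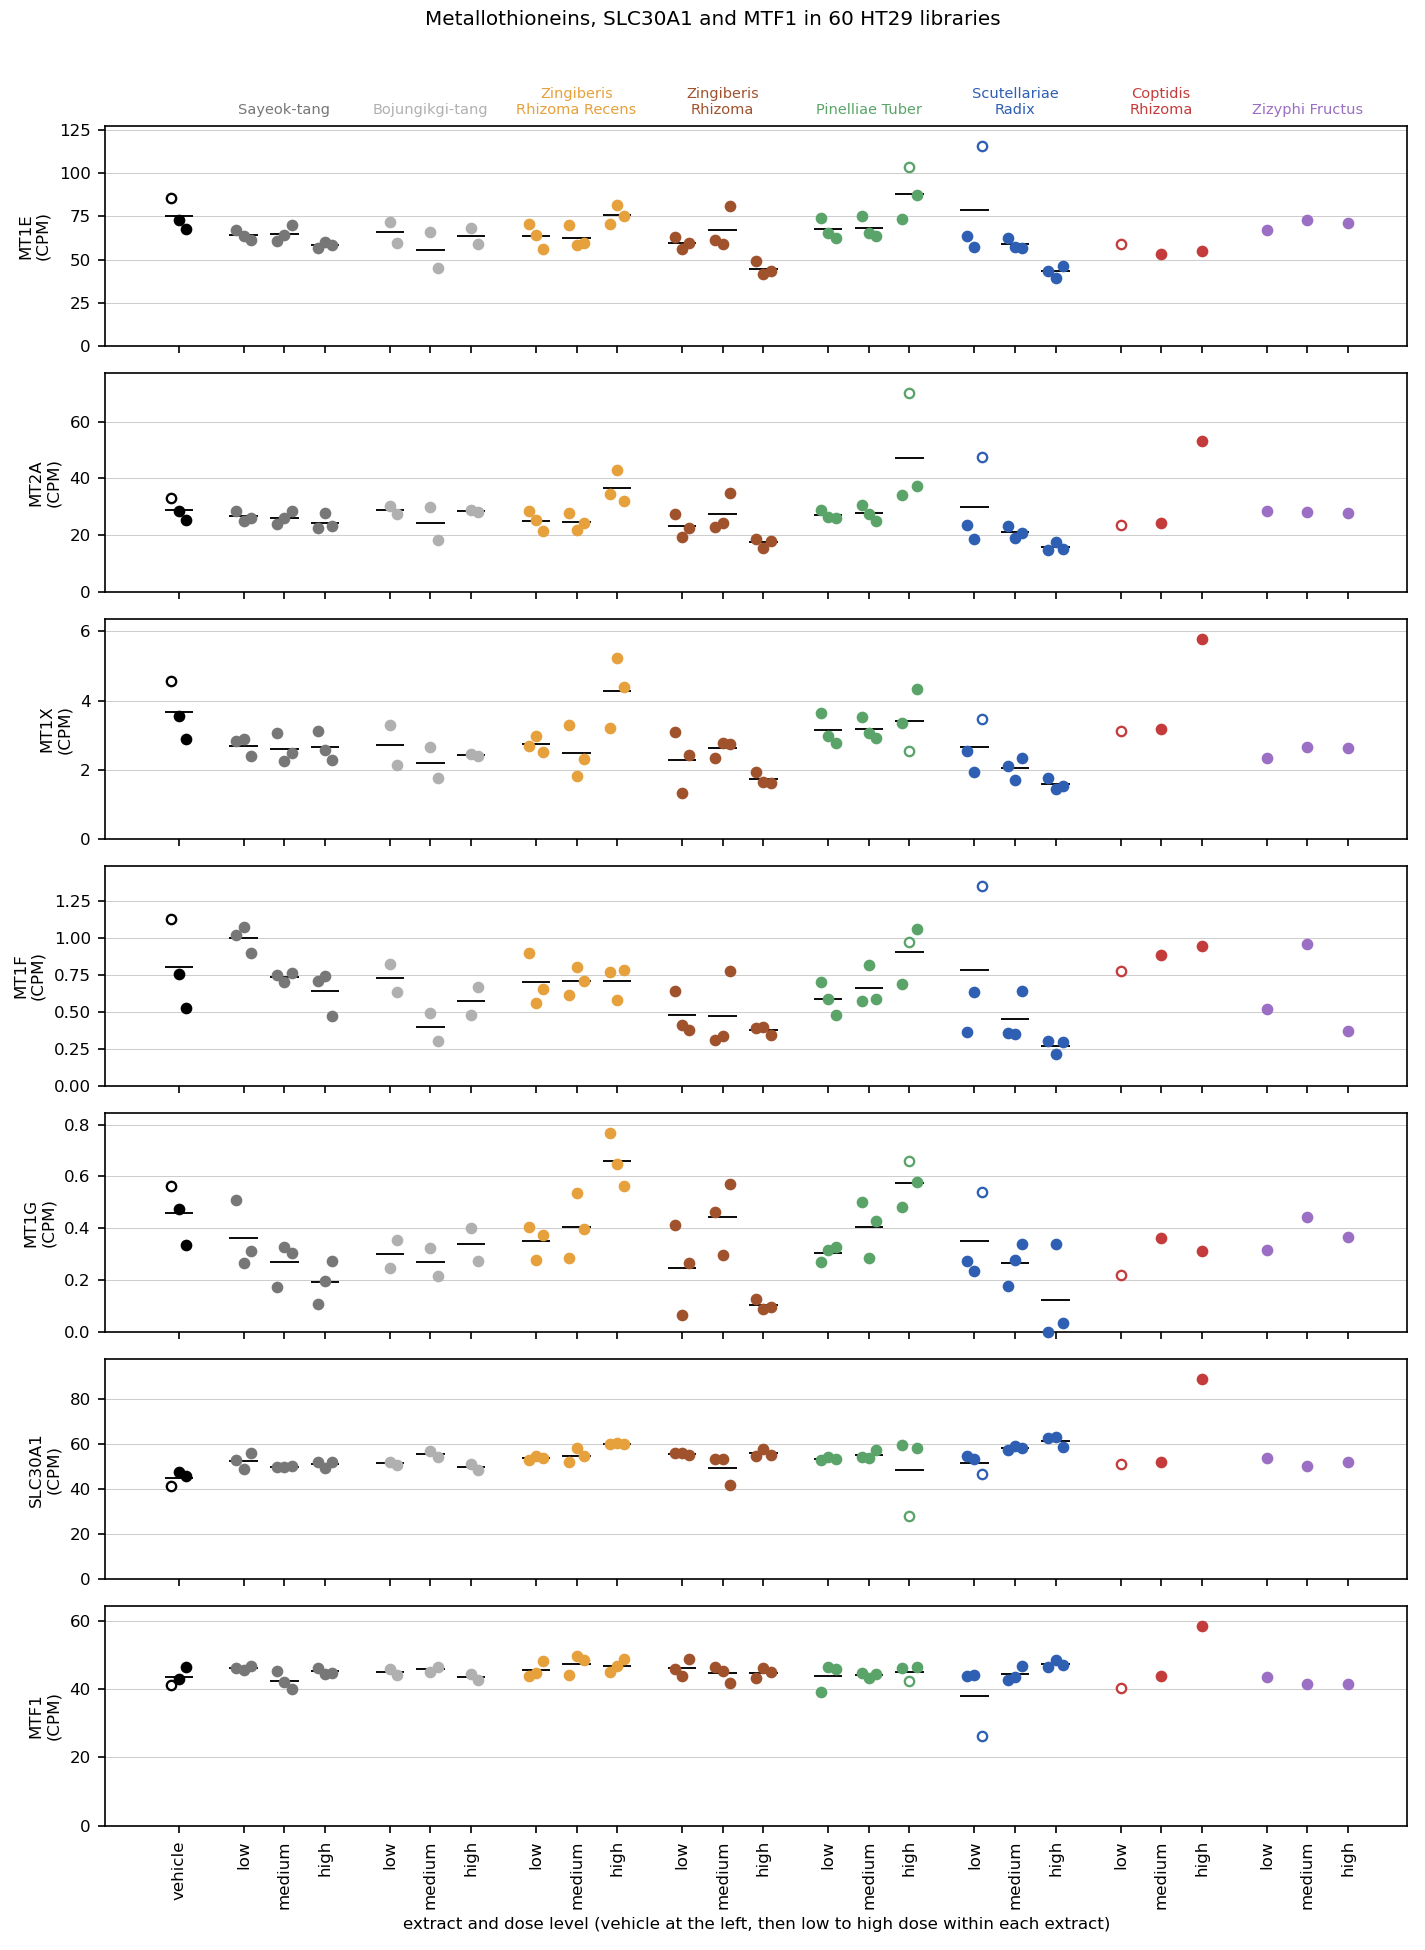
Level of each member (CPM, linear axes) in every library, with vehicle at the left and each extract's doses in rising order, black lines for group means and open circles for the libraries that stand apart. Among the means of replicated groups, those of the metallothioneins are lowest at the high doses of Scutellariae Radix and dried ginger. MT2A is 14.7 to 17.8 and 15.7 to 18.9 CPM there.

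At the high dose of Scutellariae Radix, the root of a skullcap, all 5 metallothioneins were lower than in vehicle and SLC30A1 was higher. MT1E, the most abundant member, had 43.5, 39.3 and 46.3 CPM in treated libraries, against 85.7, 72.7 and 67.6 CPM in vehicle libraries. Its log2 fold change was −0.80 ± 0.18 (SE; 1.74-fold lower, edgeR adjusted p = 0.00093). MT2A had 14.7, 17.8 and 15.2 CPM in treated libraries, against 33.2, 28.4 and 25.3 CPM in vehicle (log2 −0.86 ± 0.26, adjusted p = 0.0131). For both genes every treated library lay below every vehicle library. MT1X had 1.75, 1.44 and 1.54 CPM in treated libraries, against 4.56, 3.55 and 2.89 CPM in vehicle and the smallest adjusted p of the 5 (log2 −1.20 ± 0.24, adjusted p = 0.000248). MT1F averaged 0.268 ± 0.0491 CPM in treated libraries and 0.803 ± 0.304 CPM in vehicle (SD, n = 3 each; log2 −1.53 ± 0.38, adjusted p = 0.00271), again without overlap.

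SLC30A1, the exporter, moved the other way. It had 62.5, 62.9 and 58.4 CPM at the high Scutellariae dose, against 41.4, 47.3 and 45.8 CPM in vehicle, so that the groups did not overlap. The log2 change was 0.46 ± 0.10 (1.37-fold higher, adjusted p = 0.000986) and kept its call whichever single library was left out (0.42 to 0.49). MTF1 averaged 47.3 ± 1.02 CPM in treated libraries and 43.6 ± 2.75 CPM in vehicle, and its change of 0.13 did not pass (adjusted p = 0.278). In all, 6 of 7 members passed, where 23.6% of all genes did, with 5 lower (12.1% of genes) and 1 higher (11.4%). The median change of the 5 metallothioneins was −1.20, against −0.02 over all genes.

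MT1G was the least certain of these calls. It had 0, 0.338 and 0.037 CPM in treated libraries, against 0.564, 0.475 and 0.338 CPM in vehicle, and the groups met at 0.338. Its log2 change of −1.79 ± 0.52 (adjusted p = 0.0101) became −1.31 without treated replicate 1 or 3 (adjusted p = 0.0688 and 0.0998) and −4.13 without treated replicate 2. The MT2A call was lost without vehicle replicate 1 (−0.73, adjusted p = 0.078) and without treated replicate 1 (−0.80, adjusted p = 0.0506). With the libraries that stand apart removed, all 6 calls held, at −0.67 for MT1E, −1.23 for MT1F, −1.63 for MT1G, −1.02 for MT1X, −0.73 for MT2A and 0.42 for SLC30A1.

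The lower doses of Scutellariae gave fewer calls against vehicle. At the low dose 0 members passed (0.382% of genes called). At the medium dose (9.53% of genes called) MT1X was lower (4.64% of genes) and SLC30A1 higher (4.9%). MT1X averaged 2.05 ± 0.312 CPM there and 3.67 ± 0.842 CPM in vehicle (SD, n = 3 each), a log2 change of −0.84 ± 0.23 (adjusted p = 0.0145). The call was lost without vehicle replicate 1 (−0.66, adjusted p = 0.146) or treated replicate 2 (−0.72, adjusted p = 0.101). SLC30A1 had 57.2, 58.8 and 58.0 CPM at the medium dose, all above the vehicle libraries (log2 0.36 ± 0.10, adjusted p = 0.0211). That call was lost without vehicle replicate 1 (0.32, adjusted p = 0.12) and without treated replicate 2 (0.35, adjusted p = 0.0701) or 3 (0.36, adjusted p = 0.0616). The median metallothionein change was −0.06, −0.76 and −1.20 at the low, medium and high dose. The low-dose value includes replicate 3, which stands apart with 9.35% ribosomal protein reads. Summed over the 5 metallothioneins, the low-dose libraries had 90.4, 78.4 and 168.9 CPM, the last being replicate 3. The medium-dose libraries had 88.3, 78.8 and 80.7 CPM.

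Within the extract, the high dose was set against the low dose, a contrast free of the vehicle libraries. In all 5 members passed, where 22.5% of genes did, with MT1E at −0.86, MT1F at −1.47, MT1X at −0.71 and MT2A at −0.90 lower (11.7% of genes) and MTF1 at 0.34 higher (10.7%). MT1G and SLC30A1 did not pass, although SLC30A1 had 58.4 to 62.9 CPM at the high dose and 46.4 to 54.5 CPM at the low dose. The 5 calls turned on 1 library. MT2A had 14.7, 17.8 and 15.2 CPM at the high dose, against 23.8, 18.6 and 47.6 CPM at the low dose, and the 47.6 is low-dose replicate 3, the library with 9.35% ribosomal protein reads. MTF1 stood at 26.2 CPM in the same library, against 43.7 and 44.1 CPM in the other low-dose libraries. Without it 0 members passed, with MT1E at −0.43 (adjusted p = 0.0583), MT1F at −0.86 (0.201), MT1X at −0.46 (0.331), MT2A at −0.37 (0.408) and MTF1 at 0.16 (0.0837). The MT1X call was also lost without high-dose replicate 1 (−0.78, adjusted p = 0.0575), 2 (−0.65, adjusted p = 0.13) or 3 (−0.71, adjusted p = 0.0988). Against the medium dose 0 members passed (3.53% of genes called), although MT1E was 0.43 lower on the log2 scale with every high-dose library below every medium-dose one.

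**Figure D2:**
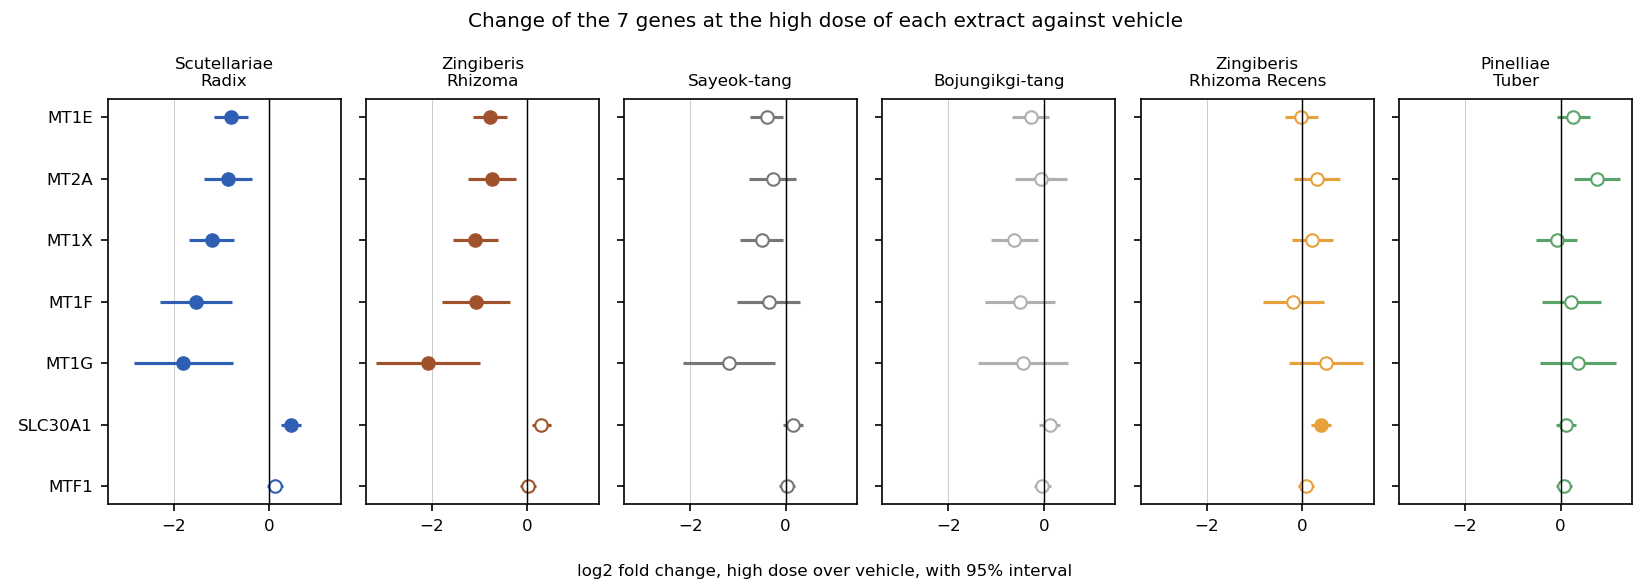
Log2 fold change of each member at the high dose over vehicle, with 95% intervals, in a panel for each of 6 extracts; filled points passed at an adjusted p under 0.05. The 5 metallothioneins lie below 0 and passed for Scutellariae Radix and dried ginger, and SLC30A1 lies above 0 for all 6 extracts and passed for Scutellariae Radix and fresh ginger.

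Dried ginger at the high dose gave a similar order of changes, with all 5 metallothioneins lower. MT1E had 49.4, 41.5 and 43.1 CPM in treated libraries, against 85.7, 72.7 and 67.6 CPM in vehicle (log2 −0.78 ± 0.18, 1.71-fold lower, adjusted p = 0.00263). MT1X had 1.93, 1.64 and 1.62 CPM in treated libraries, against 4.56, 3.55 and 2.89 CPM in vehicle (log2 −1.09 ± 0.24, adjusted p = 0.00176). MT1G had 0.129, 0.089 and 0.098 CPM in treated libraries, against 0.564, 0.475 and 0.338 CPM in vehicle (log2 −2.07 ± 0.55, adjusted p = 0.00912). In all 3 genes the groups did not overlap, and the calls held whichever library was left out.

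MT2A and MT1F passed narrowly in dried ginger. MT2A had 18.9, 15.7 and 18.1 CPM in treated libraries, against 33.2, 28.4 and 25.3 CPM in vehicle (log2 −0.74 ± 0.26, adjusted p = 0.049). Its call was lost without vehicle replicate 1 (−0.62, adjusted p = 0.222), vehicle replicate 2 (−0.77, 0.0843) and treated replicates 1 (−0.80, 0.0867), 2 (−0.67, 0.164) and 3 (−0.77, 0.0951). MT1F averaged 0.377 ± 0.0289 CPM in treated libraries and 0.803 ± 0.304 CPM in vehicle (log2 −1.07 ± 0.36, adjusted p = 0.044), and lost its call without vehicle replicate 1 (−0.78, adjusted p = 0.277) or 2 (−1.12, 0.0749) and without treated replicate 1 (−1.09, 0.102), 2 (−1.11, 0.101) or 3 (−1.02, 0.115). It was also lost with DESeq2 (−1.08, adjusted p = 0.065), with no filter (−1.07, 0.0663), without the libraries that stand apart (−0.77, 0.118) and with only the libraries compared (−1.07, 0.062). Together 5 of 7 members passed, all lower, where 13.1% of genes passed, 6.33% lower and 6.79% higher. The metallothionein median was −1.07. SLC30A1 had 54.7, 57.7 and 55.0 CPM in treated libraries, all above the 41.4 to 47.3 CPM in vehicle, but its log2 change of 0.29 missed the threshold (adjusted p = 0.0557). It was called at 0.26 with the libraries that stand apart removed.

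At the lower doses of dried ginger 0 of 7 members passed against vehicle, both at the low dose (1.99% of genes called) and at the medium dose (1.06%). High against low dose gave 0 calls (4.34% of genes). High against medium dose gave 1 call (3.23% of genes, 1.39% lower and 1.84% higher), MT1G, with 0.129, 0.089 and 0.098 CPM at the high dose, against 0.462, 0.296 and 0.572 CPM at the medium dose (log2 −1.99 ± 0.56, adjusted p = 0.0345). It was lost without high-dose replicate 1 (−2.16, adjusted p = 0.094), 2 (−1.88, 0.157) or 3 (−1.95, 0.114) and without medium-dose replicate 1 (−1.97, 0.079) or 3 (−1.76, 0.172).

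With fresh ginger, the same rhizome before drying, the metallothioneins lay near vehicle at the high dose and SLC30A1 was higher than in vehicle. SLC30A1 had 59.8, 60.3 and 59.99 CPM in treated libraries, against 41.4, 47.3 and 45.8 CPM in vehicle (log2 0.39 ± 0.10, adjusted p = 0.0203). All treated libraries lay above all vehicle libraries. The call was lost without vehicle replicate 1 (0.35, adjusted p = 0.141) and without treated replicate 1 (0.39, 0.0581), 2 (0.39, 0.0628) or 3 (0.40, 0.0559), and held, at 0.36, with the libraries that stand apart removed. MT1E averaged 76.1 ± 5.52 CPM in treated libraries and 75.3 ± 9.32 CPM in vehicle. MT2A had 34.5, 42.9 and 32.0 CPM in treated libraries, against 33.2, 28.4 and 25.3 CPM in vehicle, and the ranges overlapped (log2 0.31, adjusted p = 0.471). SLC30A1 was the 1 member of 7 that passed, where 6.36% of genes did, 2.99% higher and 3.36% lower, and the metallothionein median was 0.21. At the low (3.1% of genes called) and medium dose (2.16%) 0 members passed. Against its own low dose (0.489% of genes) and medium dose (0.167%) the high dose also gave 0 calls, although MT1E, MT1G, MT1X, MT2A and SLC30A1 were each higher in every high-dose library than in every low-dose one.

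Set directly against each other at the high dose, fresh ginger had more metallothionein RNA than dried ginger. MT1E had 70.9, 81.9 and 75.5 CPM with fresh ginger, against 49.4, 41.5 and 43.1 CPM with dried ginger (log2 0.76 ± 0.18, adjusted p = 0.00914). MT2A had 34.5, 42.9 and 32.0 CPM with fresh ginger, against 18.9, 15.7 and 18.1 CPM with dried ginger (log2 1.05 ± 0.26, 2.07-fold higher, adjusted p = 0.0143). The lowest fresh ginger library lay above the highest dried ginger library in both. MT1X had 3.22, 5.23 and 4.38 CPM with fresh ginger, against 1.93, 1.64 and 1.62 CPM with dried ginger (log2 1.302 ± 0.24, adjusted p = 0.000413). MT1G averaged 0.661 ± 0.103 CPM with fresh ginger and 0.105 ± 0.0209 CPM with dried ginger (log2 2.57 ± 0.53, adjusted p = 0.00178). These 2 calls held whichever library was left out.

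The remaining members of the ginger pair did not pass. MT1F had 0.769, 0.577 and 0.781 CPM with fresh ginger, against 0.387, 0.400 and 0.345 CPM with dried ginger, and its difference of 0.88 (95% interval 0.14 to 1.62) had an adjusted p of 0.387. SLC30A1 differed by 0.10 (95% interval −0.10 to 0.30) and MTF1 by 0.06. In all 4 of 7 members passed, where 2.26% of genes did, 0.626% higher and 1.63% lower, with a metallothionein median of 1.05 against 0.01 over all genes. The MT1E and MT2A calls were lost without fresh ginger replicate 2 (0.70, adjusted p = 0.0614, and 0.91, 0.119), dried ginger replicate 2 (0.71, 0.0771, and 0.97, 0.107) and dried ginger replicate 3 (0.74, 0.0505, and 1.08, 0.0502). At the low and at the medium dose 0 members passed, and 0% of all genes did. This pair shares no vehicle library. The mean ribosomal protein share was 5.56% with fresh ginger and 5.53% with dried ginger, and none of the 6 libraries stood apart.

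**Figure D3:**
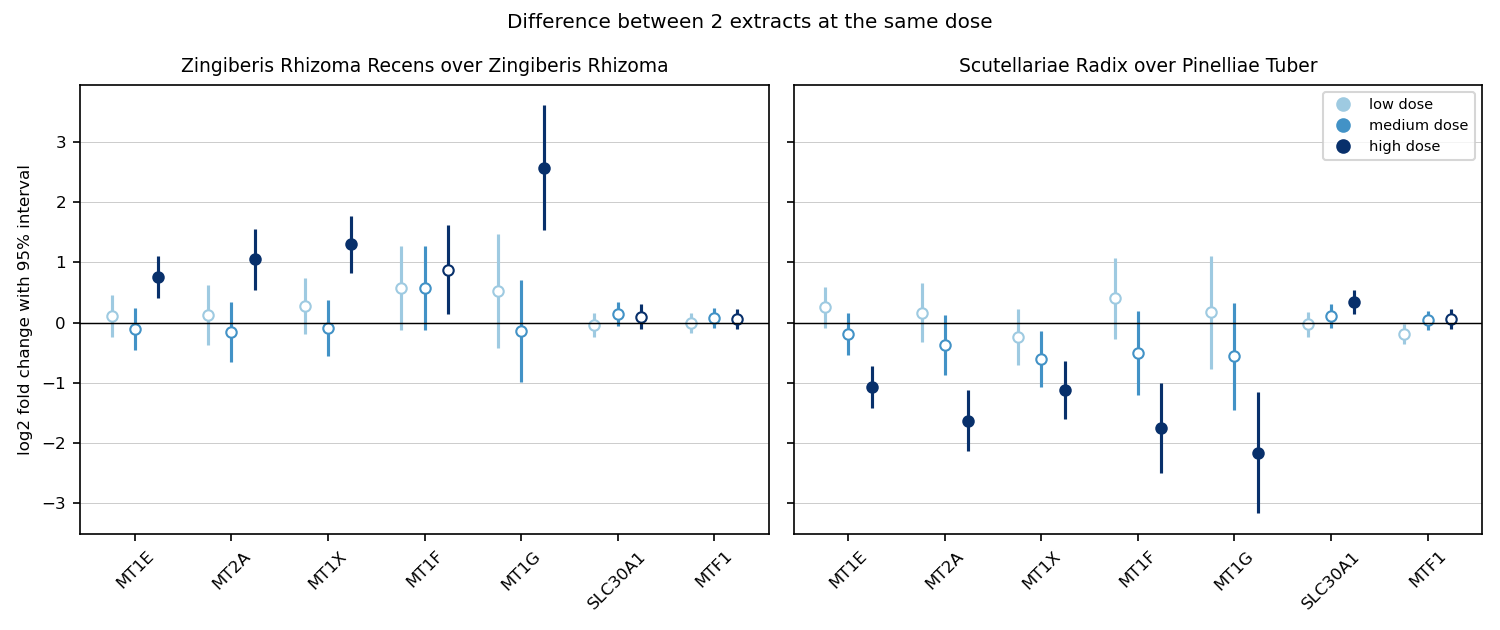
Log2 difference of each member between the 2 extracts of a pair (fresh over dried ginger, Scutellariae Radix over Pinelliae Tuber) at the low, medium and high dose, with 95% intervals and filled points where an adjusted p was under 0.05. Differences passed at the high dose in both pairs, as for MT1X at 1.302 and −1.12, and at no lower dose.

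Pinelliae Tuber gave 0 calls against vehicle at the low (0.549% of genes called), medium (2.11%) and high dose (5.12%). MT2A came closest, with 34.2, 70.2 and 37.5 CPM at the high dose, against 33.2, 28.4 and 25.3 CPM in vehicle. Every treated library lay above vehicle, but the log2 change of 0.77 ± 0.24 had an adjusted p of 0.0558, and it was 0.40 (adjusted p = 0.183) without the libraries that stand apart. SLC30A1 had 59.3, 28.0 and 58.1 CPM in treated libraries, and the 28.0 is replicate 2, the library with 14.3% mitochondrial reads. The SLC30A1 change was 0.12 (adjusted p = 0.532) with that library and 0.36 (adjusted p = 0.00022) without it. Leaving out treated replicate 1 instead gave MT2A a call (0.99, adjusted p = 0.0114).

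Against its own low dose, the high Pinelliae dose gave 1 call, MT2A, where 1.78% of genes were called, 1.16% higher and 0.626% lower. MT2A had 34.2, 70.2 and 37.5 CPM at the high dose, against 28.99, 26.5 and 26.3 CPM at the low dose (log2 0.89 ± 0.25, adjusted p = 0.0489). Replicate 2 carried most of the size. Without it the change was 0.39 (adjusted p = 0.998). The call was also lost without low-dose replicate 1 (0.94, adjusted p = 0.169), 2 (0.87, 0.147) or 3 (0.87, 0.139). Against the medium dose 0 members passed (0.322% of genes called).

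Scutellariae Radix and Pinelliae Tuber at the high dose differed in 6 of 7 members, where 22.8% of all genes differed, 12.9% lower and 9.9% higher. MT2A had 14.7, 17.8 and 15.2 CPM with Scutellariae, against 34.2, 70.2 and 37.5 CPM with Pinelliae (log2 −1.63 ± 0.26, adjusted p = 8.06e-06). MT1E had 43.5, 39.3 and 46.3 CPM with Scutellariae, against 73.5, 103.6 and 87.2 CPM with Pinelliae (log2 −1.07 ± 0.18, adjusted p = 2.03e-05). Each Scutellariae library lay below each Pinelliae library for these and for MT1X, MT1F and MT1G. MT1X had 1.75, 1.44 and 1.54 CPM with Scutellariae, against 3.34, 2.55 and 4.33 CPM with Pinelliae (log2 −1.12 ± 0.25, adjusted p = 0.000778). MT1F differed by −1.76 ± 0.38 (adjusted p = 0.000634) and MT1G by −2.16 ± 0.51 (adjusted p = 0.00174). The 5 metallothionein calls held whichever library was left out, with MT2A at −1.13 without Pinelliae replicate 2 and MT1G at −4.50 without Scutellariae replicate 2. In a fit of only these 6 libraries MT1G (−2.15, adjusted p = 0.251) and MT2A (−1.62, adjusted p = 0.0581) were not called. SLC30A1 was called higher with Scutellariae (log2 0.34 ± 0.10, adjusted p = 0.0147), a call that rested on Pinelliae replicate 2: without it the difference was 0.10 (adjusted p = 0.353). With the libraries that stand apart removed, the metallothioneins differed by −0.86 for MT1E, −1.63 for MT1F, −1.98 for MT1G, −1.24 for MT1X and −1.14 for MT2A. At the low (0.0418% of genes called) and medium dose (3.05%) 0 members passed.

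The water extracts of both formulas gave 0 calls in any member. Sayeok-tang gave 0 calls against vehicle at the low (3.3% of genes called), medium (0.793%) and high dose (2.85%). At its high dose MT2A had 22.5, 27.8 and 23.2 CPM, against 33.2, 28.4 and 25.3 CPM in vehicle. MT1E, at 56.8, 59.97 and 58.7 CPM, lay below every vehicle library, and SLC30A1, at 52.1, 49.3 and 52.1 CPM, lay above every one, although neither passed. Bojungikgi-tang gave 0 calls at the low (0.424%), medium (1.49%) and high dose (0.626%). At its high dose MT2A had 28.9 and 28.1 CPM, inside the vehicle range. The metallothionein medians against vehicle were −0.29, −0.25 and −0.40 for Sayeok-tang and −0.24, −0.76 and −0.44 for Bojungikgi-tang at the low, medium and high dose. The high dose against the low and medium doses gave 0 calls in Sayeok-tang (0.382% and 0.0179% of genes called) and in Bojungikgi-tang (0.0656% and 0%). The formulas did not differ from each other in any member at the low, medium or high dose, where 0%, 0% and 0.00597% of genes were called.

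Across the 18 replicated extract groups, SLC30A1 lay above vehicle in 18, by 0.10 to 0.46 on the log2 scale, and was called in 3. In 15 of the 18 every library exceeded every vehicle library. MT1E lay below vehicle in 16 groups, MT1F in 16, MT1G in 16, MT1X in 17 and MT2A in 15, with 2, 2, 2, 3 and 2 calls. MTF1 lay below in 6 and above in 12, with 0 calls and changes of −0.21 to 0.13. All 18 contrasts share the 3 vehicle libraries, so these directions are not independent of each other. Within groups the coefficient of variation was 8.90% for SLC30A1 and 6.93% for MTF1, against 16.4% for MT1E, 24.8% for MT2A and 32.5% for MT1G.

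Among replicated groups, the lowest MT1E means were 43.1 CPM with Scutellariae and 44.7 CPM with dried ginger, both at the high dose, and the highest was 88.1 CPM with Pinelliae at the high dose. Among replicated groups the same 2 were lowest for MT1F and MT2A. For SLC30A1 the lowest mean was that of vehicle at 44.9 CPM and the highest of a replicated group was 61.3 CPM with Scutellariae at the high dose. Neighbours in the order overlapped for 18 of 18 neighbouring pairs in MT1E, MT1G, MT1X and MTF1, and for 17 of 18 in MT1F, MT2A and SLC30A1. Over all 60 libraries MT1E ranged between 39.3 and 115.9 CPM (median 63.1), MT2A between 14.7 and 70.2 (median 26.2), MT1X between 1.33 and 5.77 (median 2.65), SLC30A1 between 28.0 and 88.6 (median 53.6) and MTF1 between 26.2 and 58.5 (median 44.95).

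Members varied together to different degrees. Over the 25 group means, the Pearson correlation of log2 levels was 0.86 between MT1X and MT2A (Spearman 0.64), 0.83 between MT1E and MT1G (0.74) and 0.63 between MT1E and MT2A (0.73). SLC30A1 had 0.76 with MTF1 (Spearman 0.63). With the metallothioneins it had −0.46 for MT1E, −0.22 for MT1G, −0.06 for MT1F, 0.31 for MT1X and 0.23 for MT2A. The Spearman values were −0.47, −0.34, −0.39, −0.25 and −0.33 in that order, so that the sign for MT1X and MT2A differs between the measures. These points share libraries and depth, and the values are descriptive. Of 11218 genes compared over the same 25 group means, those most like the mean of the 5 metallothioneins were FAM89B (0.788), TAF10 (0.730), HCFC1R1 (0.725), FIZ1 (0.722) and TADA3 (0.708). Those most like SLC30A1 were DESI2 (0.953), MAP3K2 (0.948), SAMD8 (0.947), OSGIN2 (0.946) and RAB10 (0.944). SLC30A1 was highest in the single high-dose Coptidis library. DESI2 had 112.1 CPM and MAP3K2 197.5 CPM in that library, against 53.6 and 86.8 CPM in vehicle. How far these correlations rest on that library was not tested.

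**Figure D4:**
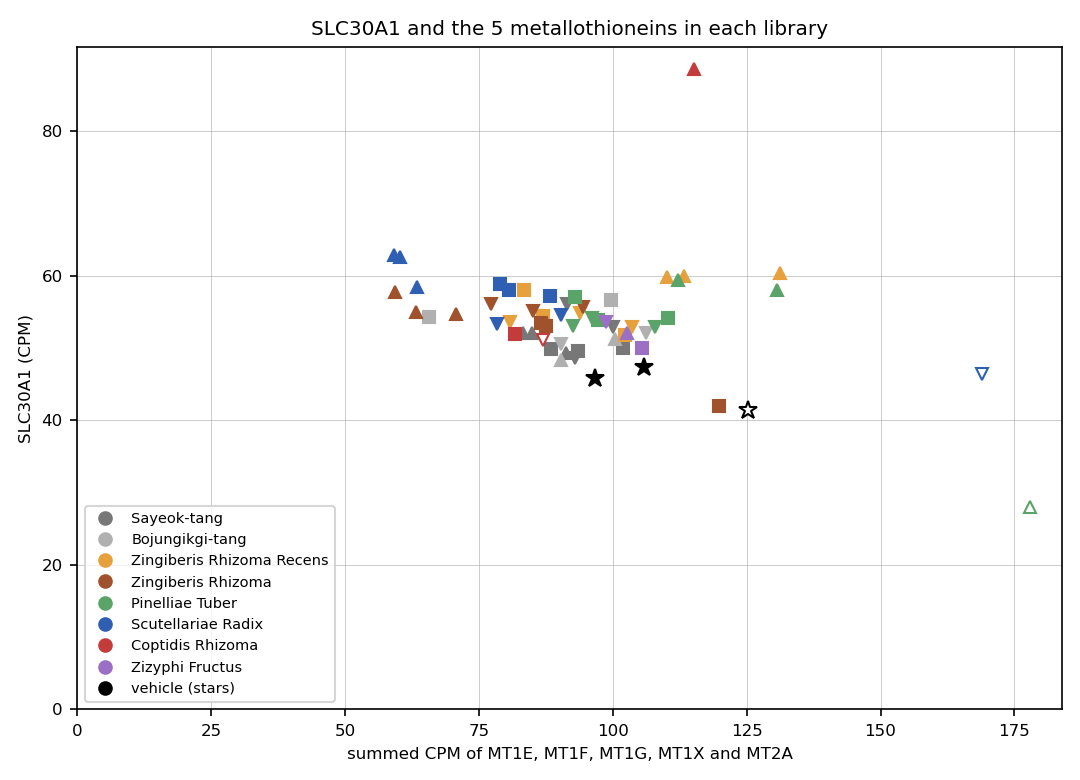
SLC30A1 (CPM) against the summed level of the 5 metallothioneins (CPM) in each of the 60 libraries, by extract and dose, with stars for vehicle and open marks for libraries that stand apart. The high-dose Scutellariae libraries lie at 59.1 to 63.4 CPM of metallothionein and 58.4 to 62.9 CPM of SLC30A1, Pinelliae high-dose replicate 2 at 177.9 and 28.0 CPM, and the Coptidis high-dose library at 88.6 CPM of SLC30A1.

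The summed metallothionein level averaged 60.9 CPM with Scutellariae and 64.4 CPM with dried ginger at the high dose, against 109.3 CPM in vehicle. It averaged 118.2 CPM with fresh ginger and 140.3 CPM with Pinelliae. The Pinelliae libraries had 112.2, 177.9 and 130.7 CPM, and the 177.9 is replicate 2, which stands apart. Over the 60 libraries the sum correlated with the share of ribosomal protein reads at r = 0.42 (Spearman 0.26), and at 0.34 (Spearman 0.24) over the 56 libraries that do not stand apart. SLC30A1 correlated with the share of mitochondrial reads at r = −0.61 (Spearman −0.32), and at −0.55 (Spearman −0.26) over those 56. The mean ribosomal protein share was 5.51% with Scutellariae, 5.53% with dried ginger, 5.56% with fresh ginger and 5.32% with Pinelliae at the high dose, against 6.37% in vehicle. The part of these shares in the contrasts with vehicle was not tested.

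Transcript length moved with the contrasts against vehicle too, a description made after the values were seen. Metallothionein transcripts are short (406 to 786 bases), whereas those of SLC30A1 and MTF1 have 5474 and 7972 bases. The median change of 754 genes with principal transcripts under 1000 bases was below 0 in 17 of the 18 contrasts with vehicle (−0.25 to 0.06). That of 2918 genes over 5000 bases was above 0 in 17 of 18 (−0.03 to 0.14). At the high Scutellariae dose the short genes had a median of −0.21 with a 5th percentile of −0.95, against which MT1E stood at −0.80, MT2A at −0.86, MT1X at −1.20, MT1F at −1.53 and MT1G at −1.79. The long genes had a median of 0.11 with a 95th percentile of 0.50, and SLC30A1 stood at 0.46. MT1E and MT2A were past the 5th percentile of short genes in 0 of 18 contrasts, MT1F in 6, MT1G in 7 and MT1X in 7, and SLC30A1 was past the 95th percentile of long genes in 1, fresh ginger at the high dose. MT2A was above the 95th percentile of short genes at the high Pinelliae dose (0.77, against 0.43), and stood at 0.40 without the libraries that stand apart. It was also narrowly above that percentile at the high fresh ginger dose (0.31, against 0.301). Between the high and the low dose of Scutellariae, the medians were −0.28 for short and 0.13 for long genes. The part of length in these contrasts was not tested. Between extracts at the high dose the medians were near 0, at −0.02 for short and 0.02 for long genes between Scutellariae and Pinelliae and at 0.01 for short genes between the gingers. There the called metallothioneins lay past the 5th percentile of short genes for Scutellariae over Pinelliae (−0.94). Without the libraries that stand apart, MT1E differed by −0.86 between these 2 extracts, short of that percentile in all libraries. For fresh over dried ginger the called metallothioneins lay past the 95th percentile of short genes (0.54).

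**Figure D5:**
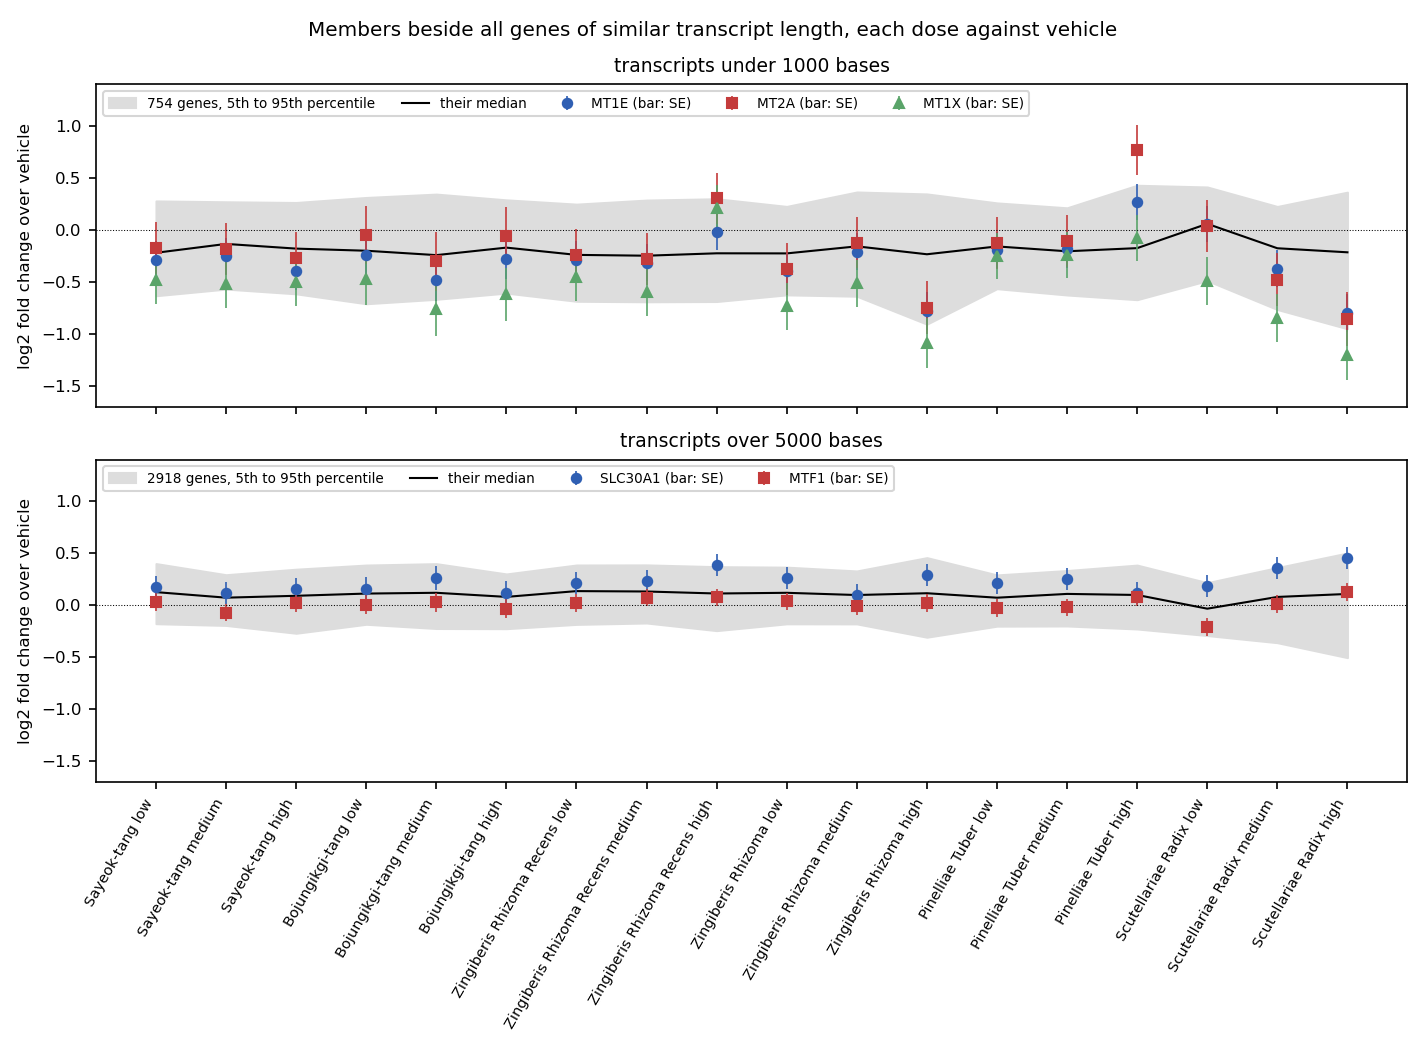
Log2 fold change over vehicle in 18 extract and dose groups, with MT1E, MT2A and MT1X over the band of 754 genes with transcripts under 1000 bases (upper) and SLC30A1 and MTF1 over that of 2918 genes over 5000 bases (lower); bars are SE, bands the 5th to 95th percentile and lines the median. MT1E and MT2A fall below the upper band in 0 of 18 groups, and SLC30A1 lies above the lower band in 1 group. MT2A lies above the upper band at the high Pinelliae dose (0.77, or 0.40 without the libraries that stand apart). It lies narrowly above it at the high fresh ginger dose (0.31, against 0.301).

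Coptidis Rhizoma at 320 µg/mL gave the highest SLC30A1 of the 60 libraries analysed in its single library, for which no replicate check exists. SLC30A1 had 88.6 CPM there (95% exact binomial interval 85.0 to 92.3, counting error only), against a vehicle mean of 44.9 CPM. MT2A had 53.1 CPM (50.3 to 56.0), against 28.999 CPM in vehicle, and MT1X had 5.77 CPM (4.87 to 6.78), against 3.67 CPM. MT1E had 55.0 CPM (52.2 to 58.0), below the vehicle libraries, so that MT2A and MT1E lay on opposite sides of vehicle. This library had 3.44% mitochondrial and 6.69% ribosomal protein reads, 9.98 and 9.62 median absolute deviations from the medians, just inside the limit of 10 for standing apart. The part of these shares in its levels was not tested. With 0.5 CPM added to each level, the log2 ratios to vehicle were 0.97 for SLC30A1, 0.86 for MT2A, 0.59 for MT1X, 0.42 for MTF1 and −0.45 for MT1E. At 64 µg/mL SLC30A1 had 51.9 CPM and MT2A 24.4 CPM. At the high dose of Zizyphi Fructus SLC30A1 had 52.0 CPM and MT2A 27.7 CPM. Of the 42 pairs of a member and a single library 0 passed a log2 ratio of 1 in size, a size passed by 13.4% of genes at the high Coptidis dose, 1.45% at its medium and 0.612% at its low dose, and by 0.377%, 0.429% and 0.538% at the low, medium and high dose of Zizyphi Fructus.

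Other genes of zinc and copper handling were counted at the high doses. Of 8 further metallothionein genes 1, MT1A, had enough reads to be tested. It did not pass at the high dose of Scutellariae (−0.22, adjusted p = 0.73) or dried ginger (−0.36, adjusted p = 0.59). In the single high-dose Coptidis library MT1A had 1 read (0.039 CPM), against 0.695 CPM in vehicle. With 0.5 CPM added to each level, that is a log2 ratio of −1.15, past 1 in size. Of 9 other SLC30A zinc transporters, 6 were tested. Of these 6, 3 were higher (11.4% of all genes) and 0 lower (12.1%) at the high Scutellariae dose, with a median of 0.24 against −0.02 over all genes. They were SLC30A5 (0.34, adjusted p = 0.0017), SLC30A6 (0.31, adjusted p = 0.0022) and SLC30A7 (0.30, adjusted p = 0.0082), which load zinc into the secretory pathway. At the high dose of dried ginger SLC30A5 (0.30) and SLC30A7 (0.27) were higher and SLC30A2 was lower (−1.64), and 0 passed with fresh ginger or Pinelliae. The shares of all genes called at these doses are given above. SLC30A2 was near the limit of counting, with a median of 0.317 CPM over the libraries.

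Of 12 SLC39A zinc importers tested among 14, 2 were higher and 2 lower at the high Scutellariae dose, near the 11.4% and 12.1% of all genes, with a median of 0.01 against −0.02. SLC39A6, a plasma membrane importer, was higher (0.49), and SLC39A4, the importer of dietary zinc in the intestine, was lower (−0.55, adjusted p = 0.0041). SLC39A6 was also the 1 importer called with dried ginger (0.33). Of 11 copper genes 2 were higher and 2 lower at the high Scutellariae dose, also near the 11.4% and 12.1% of all genes, with a median of −0.02 for both. The copper importer SLC31A1 (0.39, adjusted p = 0.00117) and the copper-exporting ATPase ATP7A (0.50) were higher, and the copper chaperones CCS (−0.33, adjusted p = 0.0253) and ATOX1 (−0.42, adjusted p = 0.0101) were lower.

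Oxidant-response and heat shock genes that metals are known to induce were higher in both conditions with lower metallothioneins, and in others. Of 10 tested, 9 were higher and 0 lower at the high dose of Scutellariae (median 0.80), where 11.4% of genes were higher. Dried ginger gave 9 and 0 (median 0.60; 6.79% of genes higher) and fresh ginger 6 and 0 (median 0.38; 2.99%). Pinelliae gave 3 and 0, where 2.23% of genes were higher, Sayeok-tang 4 and 0 (1.26%), and Bojungikgi-tang 1 and 0 (0.334%). HMOX1, haem oxygenase, averaged 23.7 ± 0.24 CPM with Scutellariae, 17.4 ± 0.65 CPM with dried ginger and 12.4 ± 0.98 CPM with fresh ginger, against 9.39 ± 0.33 CPM in vehicle (SD, n = 3 each), and was called in all 3. SLC7A11, the cystine importer, averaged 471 ± 4.34 CPM with Scutellariae, 357 ± 11.4 CPM with dried ginger and 221 ± 13.5 CPM with fresh ginger, against 143 ± 12.1 CPM in vehicle, and was likewise called in all 3. Set against dried ginger at the high dose, fresh ginger had 0 of the 10 higher (0.626% of genes) and 5 lower (1.63%; median −0.24), while 4 of 5 metallothioneins were higher. Scutellariae against Pinelliae gave 7 higher (9.9% of genes) and 0 lower (12.9%; median 0.81), while all 5 metallothioneins were lower.

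In the single high-dose Coptidis library, HMOX1 had 85.0 CPM, against 9.39 CPM in vehicle, and SLC7A11 had 1035 CPM, against 143 CPM in vehicle. Of 6 glucocorticoid-inducible genes tested, 2 were higher (11.4% of all genes) and 0 lower (12.1%) at the high Scutellariae dose, FKBP5 (0.33, adjusted p = 0.000986) and SGK1 (0.18, adjusted p = 0.00476). NR3C1, the glucocorticoid receptor, was at 0 in 43 of the 60 libraries.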

How the data were processed

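RNA-seq of HT29 cells was analysed in 60 libraries of 25 groups. The values are expected counts per gene, which the authors deposited in 1 table for the whole series, and 210 of its columns were not used. Per the submitters' processing notes, the build was hg38 and the tools were RSEM 1.3.3, STAR 2.7.3a, Trim Galore 0.6.5 and FastQC 0.11.9. Per the labels' protocols, 1 µg of total RNA with an integrity number over 7 entered a strand-specific library kit. No source used here gives the annotation release, and names and positions come from GENCODE 29, which held 57055 of 60675 gene IDs. RSEM divides reads that match several genes. Of the deposited values 90.0% to 92.1% a library were whole.

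Expected counts were rounded and tested with edgeR 4.0.16 (R 4.3.3): a filter on low counts by group, TMM scaling and a quasi-likelihood fit of 54 libraries in 19 groups, with Benjamini-Hochberg adjustment over 16763 genes for each contrast and a threshold of 0.05. The script was tested on simulated data. CPM divide by the library total. Alternatives were DESeq2 1.42.0, its size factors in edgeR, no filter, a replicate block, only the libraries compared, and removal of each library or of those that stand apart, whose ribosomal or mitochondrial share is more than 10 median absolute deviations off the middle library. Groups with 1 library got no test. Members and gene lists were chosen with earlier results of these data known. List genes named are up to 4 a list with the smallest p over the contrasts with vehicle and of high with low dose. Replicate numbers paired the libraries (every correlation over 0.1) in 3 contrasts: high against medium dose and low dose against vehicle in Pinelliae Tuber, and fresh against dried ginger at the low dose.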

Additional observations from a re-analysis of the deposited data

Results flagged for a closer look

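The change between the high and the low dose was set against each other for Scutellariae Radix and Pinelliae Tuber in 1 contrast over all genes, of which 9.58% were called. The change was lower in Scutellariae than in Pinelliae by −1.319 for MT1E (edgeR adjusted p = 0.00034), −2.156 for MT1F (0.0046), −2.333 for MT1G (0.031) and −1.789 for MT2A (0.00076). MT1X (−0.88), SLC30A1 (0.37) and MTF1 (0.24) did not pass. A library that stands apart lies on either side of this contrast, Scutellariae low-dose replicate 3 and Pinelliae high-dose replicate 2. Without them and vehicle replicate 1 MT1E stood at −0.68 (adjusted p = 0.0189) and remained called, while MT1F stood at −1.41 (0.0855), MT1G at −1.71 (0.211) and MT2A at −0.76 (0.0627). Without the Scutellariae library alone MT1E stood at −0.89 (0.0032), MT1F at −1.54 (0.0456), MT1G at −1.89 (0.113) and MT2A at −1.25 (0.0093). Without the Pinelliae library alone MT1E stood at −1.11 (0.0038), MT1F at −2.03 (0.0149), MT1G at −2.14 (0.0812) and MT2A at −1.29 (0.0087). This contrast was added after the data were seen. The same contrast called 0 members between fresh and dried ginger, where 0.644% of genes were called.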

How the results depend on the processing

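Of 273 pairs of a member and a replicated contrast, 31 were called; 12 of these calls held in every other setting that gave a value and with every library left out, 14 with every library left out, and 0 pairs reversed. DESeq2 lost 2 calls and gained 5, its size factors 1 and 0, no filter 1 and 30, removal of the libraries that stand apart 7 and 15, and only the libraries compared 9 and 11. In that last setting 4 more called pairs fell under its own filter and were not tested: MT1G at the high dose of Scutellariae and of dried ginger against vehicle, MT1F in Scutellariae high against low dose and MT1G in dried ginger high against medium dose. Counts of called pairs over the 3 doses against vehicle were 0 for Sayeok-tang (2 with no filter, 1 with only the libraries compared), 0 for Bojungikgi-tang (2 with no filter, 1 without those that stand apart), 1 for fresh ginger (5 and 3), 5 for dried ginger (8 with no filter), 0 for Pinelliae (1 with DESeq2, 2 with no filter, 3 without those that stand apart, 1 with only the libraries compared) and 8 for Scutellariae. With each library left out in turn they were 0 to 0, 0 to 0, 0 to 1, 3 to 6, 0 to 1 and 5 to 8 in that order.

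High against low dose, fresh ginger went to 1 with no filter, dried ginger to 2 with no filter and 1 without those that stand apart or with only the libraries compared, Pinelliae (1 call; 0 to 2 by library left out) to 2 with no filter and 0 with DESeq2 size factors, without those that stand apart or with only the libraries compared, and Scutellariae (5 calls; 0 to 6) to 2 without those that stand apart and 0 with only the libraries compared. High against medium dose, fresh ginger went to 2 with no filter and 1 without those that stand apart, dried ginger (1 call; 0 to 1) to 3, 4 and, with only the libraries compared, 0, Pinelliae (0 calls; 0 to 2) to 1 with DESeq2 and 2 with no filter, and Scutellariae (0 calls; 0 to 1) to 2 with no filter, 1 without those that stand apart and 2 with only the libraries compared. Between extracts, leaving out a library gave 2 to 4 for the gingers and 5 to 7 for Scutellariae against Pinelliae. In the single libraries the count past a log2 ratio of 1 was 0, and 1 without vehicle replicate 2. The cause of these shifts was not tested.

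With the replicate number as a block, 2 calls were lost, both of MT2A in contrasts whose libraries share only a number, and 0 gained. They were dried ginger at the high dose against vehicle (−0.74, adjusted p = 0.0576) and Pinelliae high against low dose (0.89, adjusted p = 0.0631), which then had 0 calls. Counts of 0 to 27 reads limit MT1F and MT1G.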
